A study of Drosophila melanogaster with 25 samples.

Results

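A set of 10 genes of the response to ecdysone, the steroid hormone that times moulting and metamorphosis in insects, were followed across 6 genotypes of Drosophila wing imaginal discs. They were EcR and usp (the receptor), br, Eip74EF and Eip75B (early transcription factors), Hr3 and Hr4 (nuclear receptors that follow them), and ImpE1, ImpE2 and ImpL2 (hormone-inducible genes of imaginal discs). The genes were chosen by name and not by a measured value, and all 10 were found among the 13955 genes of the deposited tables. ImpE2 was called lower than in WT in 4 of the 5 mutant genotypes, with means 0.30 to 0.38 times that of WT in RpS3, RpS3* and mahj and 0.705 times in RpS3 discs that also overexpress puckered. In RpS15 discs ImpE2 was not called, at a mean 1.28 times that of WT. ImpL2 was called higher in RpS3*, mahj and RpS3+puc discs, at 1.77 to 1.98 times the WT mean.

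Ecdysone is made in the prothoracic gland and converted to its active form in target tissues. There it binds a dimer of EcR and Usp, which switches on a small set of early genes, whose products in turn drive later targets and shut down the early response. In the wing disc, an epithelial sac of the larva that becomes the adult wing, the pulses at the end of the last larval stage set off the eversion and elongation of the tissue, and transcripts such as those of Hr3, ImpE1 and ImpE2 are known to follow the hormone. For this reason they are used to place a disc within the last hours before pupariation.

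RNA sequencing had been carried out on 50 whole wing discs per sample, taken from wandering larvae of the last stage, kept at 25 °C. No hour of dissection is given, so that genotype and developmental time at dissection cannot be told apart. The 25 samples make up 19 libraries, since both RpS15 libraries, both mahj libraries, WT1 and WT2 were each the pool of 2 sequencing runs. The WT group had 8 libraries, of which 6 (WT1 to WT4, WT7 and WT8) were yw and 2 (WT5 and WT6) carried FRT82, ubi-GFP. RpS3 discs (FRT82B, RpS3[Plac92], ubi-GFP/+, 2 libraries) and RpS3* discs (FRT82B, RpS3*/+, 2 libraries) were heterozygous for different alleles of RpS3, which encodes a protein of the small ribosomal subunit. RpS15 discs (FRT42D, M(2)53[1]/+, 2 libraries) had lost 1 copy of another gene of that subunit. The mahj discs (2 libraries) were homozygous for a mahj allele on an FRT42D chromosome and carried hs-FLP and stauGFP/+. RpS3+puc discs (3 libraries) carried esg-Gal4, UAS-GFP/UAS-Puc together with FRT82, RpS3[Plac92], ubi-GFP/+, so that puckered was driven in the pattern of esg. Puckered is an inhibitor of JNK signalling, and no group analysed here carried the driver without UAS-Puc.

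Values are FPKM, the fragments on a gene per kilobase of transcript and per fixed library size. Differences are given as log2 fold changes of FPKM + 1, fitted in limma. Genes that reached 1 FPKM in 2 or more compared libraries were tested, and a gene is said to be called where its Benjamini-Hochberg adjusted p was under 0.1. The pseudocount of 1 makes the log2 fold change of a weakly expressed gene smaller than its ratio of FPKM. The labels do not say that the libraries of a group came from separate crosses or days, so that the p-values measure only the spread between these libraries. In whole discs, fewer cells of a type and less RNA per cell cannot be told apart.

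The low values of single-transcript genes step in units of 1 read, which implies 12118100 to 16973200 reads per library. For WT1 the column heading names run 1 alone. Wing disc markers (vg, nub, ap, sd, pdm2 and rn) were found in each of the 19 libraries, with none below 16.2 FPKM. Their sum was 443 to 583 FPKM in WT and 320 to 421 in RpS3+puc, where 5 of the 6 were called lower and 1 higher. In RpS3+puc 62.3% of all genes were called against WT. In RpS15 the sum was 626 and 660 FPKM, above every WT library, with 2 of 6 called higher beside 21.1% of all genes. The salivary gland glue genes, which are strong ecdysone targets in that gland, summed to 0.136 to 40.7 FPKM in WT and to no more than 25.9 in any mutant library. Of the prothoracic gland markers, spok (a step in ecdysone synthesis) was at 0 in 16 of the 19 libraries. The others were low but found in every library, with phm at 0.605 to 1.90 FPKM, dib at 1.60 to 3.99 and sad at 1.54 to 3.75.

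EcR encodes the hormone-binding partner of the receptor (2R, 6087873 to 6169087 on the reverse strand in BDGP6.54, 6 annotated transcripts). It had a lowest, median and highest value of 21.8, 27.8 and 38.0 FPKM over the 8 WT libraries. The mahj libraries had 39.4 and 38.9 FPKM, both above every WT library, and the RpS3+puc libraries had 18.7, 23.7 and 18.7, with 2 of the 3 below every WT library. RpS3 (27.7 and 28.7), RpS3* (24.6 and 33.5) and RpS15 (37.9 and 32.01 FPKM) lay within the WT range. Against WT, EcR was called higher in mahj (log2 fold change 0.46, SE 0.15, adjusted p = 0.073) and lower in RpS3+puc (−0.45, SE 0.14, adjusted p = 0.013). It was also lower in RpS3+puc than in RpS3 (−0.46, SE 0.11, adjusted p = 0.014), where the libraries of the groups did not overlap. The call in mahj was lost without WT3, WT4, mahj1 or mahj2, with an adjusted p between 0.111 and 0.485. Against WT1 and WT2 alone, the WT libraries that were also pools of 2 runs, it was lost at a log2 fold change of 0.19 (adjusted p = 0.237). In RpS3+puc the call was lost against the FRT82 ubi-GFP WT libraries alone (−0.28, adjusted p = 0.145), and that against RpS3 was lost without RpS3 replicate 2 (adjusted p = 0.118). Of all neighbours in the order of the 6 means, only mahj and RpS15 at the top and RpS3 and RpS3+puc at the bottom had libraries that did not overlap.

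The partner gene usp, the fly homologue of the RXR receptors (X, 2038798 to 2042311, reverse strand), moved little. Its lowest, median and highest WT values were 26.5, 30.7 and 33.5 FPKM, and in the mutants it ranged from 25.9 FPKM in RpS3+puc replicate 1 to 32.5 in RpS3* 1. All neighbouring groups overlapped in the order of means. It passed no test against WT (log2 fold changes −0.10 to 0.09) and was called only in RpS3+puc against RpS3, at −0.19 (SE 0.08, adjusted p = 0.0999). That call lay at the threshold and was lost in 11 of 13 alternative settings. Actn, a gene of 64.7 FPKM on the same strand, overlaps usp, and CG4313 lies on the other strand. How the authors assigned reads of overlapping genes is not given in the sources used here.

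br encodes the Broad zinc finger proteins, which act early in the response and specify the pupal state (X, 1575132 to 1664869, forward strand, 16 annotated transcripts, summed in 1 value). Its lowest, median and highest WT values were 204, 309 and 353 FPKM, with WT7 lowest. RpS3 had 164 and 183 FPKM, RpS3* 193 and 167, and RpS3+puc 127, 180 and 199, so that each of these 7 libraries lay below every WT library. In mahj, 1 library (177 FPKM) lay below WT and the other (238) within it, and in RpS15 (343 and 379 FPKM) 1 lay above. br fell by 0.75 on the log2 scale in RpS3 (SE 0.17, adjusted p = 0.017), by 0.70 in RpS3* (SE 0.17, adjusted p = 0.019) and by 0.82 in RpS3+puc (SE 0.17, adjusted p = 0.0016). In mahj the log2 fold change was −0.51 (SE 0.18, adjusted p = 0.105), and without WT7 it was −0.58 and called (adjusted p = 0.018). In RpS15 it was 0.30 (SE 0.17, adjusted p = 0.256). The call in RpS3 was lost without either of its libraries (adjusted p = 0.277 and 0.116), and that in RpS3* without RpS3* replicate 2 (adjusted p = 0.268).

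Eip74EF, an ETS domain transcription factor that is among the first genes to respond, did not separate the genotypes (3L, 17558672 to 17619325, reverse strand). Its lowest, median and highest WT values were 19.1, 20.8 and 25.5 FPKM, and each mutant library lay within that range. The 5 log2 fold changes against WT were between −0.06 and 0.11. In the F test over the 6 genotypes its adjusted p was 0.844.

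Eip75B, a haem-binding nuclear receptor that restrains Hr3 (3L, 17950953 to 18064696, reverse strand), followed br in part. The lowest, median and highest WT values were 31.0, 40.9 and 48.6 FPKM. RpS3 had 24.0 and 29.3 FPKM, both below WT, and of the RpS3+puc libraries (18.1, 25.4 and 32.9 FPKM) 2 lay below. RpS3* (31.8 and 31.0 FPKM) sat at the lower edge of WT, and mahj (35.7 and 40.4) and RpS15 (47.6 and 48.1) lay within it. Eip75B fell by 0.59 in RpS3 (SE 0.15, adjusted p = 0.027) and by 0.68 in RpS3+puc (SE 0.16, adjusted p = 0.0032). In RpS3* the log2 fold change was −0.35 (SE 0.14, adjusted p = 0.109), which was called without WT6 (adjusted p = 0.084) or WT7 (0.022). The call in RpS3 was lost without RpS3 replicate 1 (adjusted p = 0.376).

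Hr3 is a nuclear receptor that is induced after the early genes, helps to shut them down and prepares the next step, the expression of ftz-f1 (2R, 10203995 to 10237348, reverse strand). It varied more between the libraries of a group than any other member. WT1 had 0.509 FPKM, WT7 and WT8 3.09 and 3.18, and the other 5 WT libraries 9.37 to 18.8, with WT5 and WT6 highest. RpS15 had 15.2 and 42.0 FPKM, and RpS15 replicate 2 was the highest of all 19 libraries. RpS3 (2.97 and 1.42 FPKM), RpS3* (4.39 and 0.217), mahj (1.44 and 5.61) and RpS3+puc (0.129, 4.32 and 6.33) all overlapped WT. The log2 fold changes against WT were 1.74 in RpS15 (SE 0.96, adjusted p = 0.255) and −0.97 to −1.62 in the other 4 genotypes. None was called in the main fit with all 8 WT libraries. Against the FRT82 ubi-GFP WT libraries (WT5 and WT6) alone, the highest of WT for Hr3, the log2 fold change was −2.62 in RpS3 (adjusted p = 0.0017) and −2.25 in mahj (adjusted p = 0.097), both called. Values below 1 FPKM rest on few reads.

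Hr4, a nuclear receptor that represses early genes and is induced with Hr3, had the same order of libraries as Hr3 within each mutant genotype (X, 1941940 to 2007956, forward strand). In WT, WT1, WT8 and WT7 had 3.78, 5.59 and 6.13 FPKM and the other 5 libraries 15.7 to 24.5. RpS15 had 20.1 and 35.4 FPKM, RpS3 5.35 and 3.33, RpS3* 11.5 and 1.53, mahj 4.30 and 9.68, and RpS3+puc 1.35, 5.51 and 10.4. As with Hr3, no comparison with all 8 WT libraries was called in the main fit. The log2 fold changes were 1.12 in RpS15 (SE 0.66, adjusted p = 0.282) and −0.76 to −1.28 elsewhere. In RpS3+puc the log2 fold change of −1.19 (adjusted p = 0.139) became called without WT1 (adjusted p = 0.076) or RpS3+puc replicate 3 (0.078). Against the FRT82 ubi-GFP WT libraries alone it was −2.06 in RpS3 and called (adjusted p = 0.0046). PIG-K, at 42.8 FPKM on the opposite strand, overlaps Hr4.

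ImpE1 encodes a membrane protein with repeats of the LDL receptor type that is induced in discs by the hormone (3L, 8372405 to 8391171, forward strand). WT7, WT1 and WT8 had 43.0, 44.5 and 47.7 FPKM and the other 5 WT libraries 76.6 to 88.7. RpS15 had 93.1 and 136 FPKM, both above every WT library. RpS3 had 19.5 and 23.1 FPKM, both below WT, whereas RpS3* (53.6 and 17.8), mahj (14.3 and 46.2) and RpS3+puc (13.2, 28.8 and 45.3 FPKM) each had at least 1 library within the WT range. ImpE1 fell by 1.57 in RpS3 (SE 0.28, adjusted p = 0.0058), by 1.30 in mahj (SE 0.41, adjusted p = 0.074) and by 1.29 in RpS3+puc (SE 0.35, adjusted p = 0.01). In RpS3* the log2 fold change was −1.05 (SE 0.40, adjusted p = 0.109) and in RpS15 0.78 (SE 0.30, adjusted p = 0.105). Of these, the call in RpS3 was lost without RpS3 replicate 1 (adjusted p = 0.152), and that in mahj without WT2, WT3, WT4, WT6 (adjusted p between 0.109 and 0.117) or mahj1, without which the log2 fold change was −0.49 (adjusted p = 0.81). It was also lost against the yw WT libraries, the FRT82 ubi-GFP WT libraries or WT1 and WT2 alone (adjusted p = 0.147, 0.308 and 0.435), and the call in RpS3+puc was lost against the FRT82 ubi-GFP WT libraries (−1.62, adjusted p = 0.117). The value in RpS3* was called without WT7, WT8 or RpS3* replicate 1 (adjusted p = 0.071, 0.094 and 0.026), and that in RpS15 without WT3 or WT6 (0.093 and 0.099).

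ImpE2, whose product is secreted at the apical side of disc cells, was by far the most abundant member (3L, 3510974 to 3512681, reverse strand, 1 annotated transcript). In WT its mean of 2352 FPKM ranked 65 among the 13955 genes. Its lowest, median and highest WT values were 1620, 2508 and 3091 FPKM. RpS3 had 757 and 1009 FPKM, RpS3* 1124 and 444, and mahj 393 and 1020, and these 6 libraries all lay below every WT library. In RpS3+puc (1078, 1441 and 2456 FPKM) 2 of 3 libraries lay below, and in RpS15 (2382 and 3660) 1 lay above. ImpE2 fell by 1.40 in RpS3 (SE 0.21, adjusted p = 0.0012), by 1.71 in RpS3* (SE 0.30, adjusted p = 0.0032), by 1.86 in mahj (SE 0.30, adjusted p = 0.0018) and by 0.56 in RpS3+puc (SE 0.23, adjusted p = 0.053). The first 3 calls were kept without any single library. That in mahj was lost against WT1 and WT2 alone, at a log2 fold change of −1.81 (adjusted p = 0.192). The call in RpS3+puc was lost against the yw WT libraries (−0.47, adjusted p = 0.112) or the FRT82 ubi-GFP WT libraries alone (−0.83, adjusted p = 0.105), and also without RpS3+puc replicate 1 (log2 fold change −0.29, adjusted p = 0.334) or RpS3+puc replicate 2 (−0.50, adjusted p = 0.154). In RpS15 the log2 fold change was 0.36 (SE 0.22, adjusted p = 0.293). The RpS3+puc libraries did not overlap those of RpS3, and the fitted difference was 0.84 on the log2 scale (SE 0.39, adjusted p = 0.162).

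ImpL2 encodes a secreted protein that binds insulin-like peptides and holds back insulin signalling (3L, 4224006 to 4236147, reverse strand). WT had a lowest, median and highest value of 34.3, 43.8 and 57.6 FPKM, in which WT1, WT5, WT6 and WT8 lay at 34.3 to 38.0 and the other 4 at 49.6 or above. RpS3* had 96.3 and 81.9 FPKM, mahj 87.2 and 72.2, and RpS3+puc 78.1, 86.7 and 96.1, and each of these 7 libraries lay above every WT library. RpS15 (56.6 and 49.5 FPKM) lay within the WT range, and RpS3 was split, with 77.8 above it and 46.4 within it. ImpL2 rose by 0.99 in RpS3* (SE 0.19, adjusted p = 0.0052), by 0.83 in mahj (SE 0.20, adjusted p = 0.014) and by 0.96 in RpS3+puc (SE 0.16, adjusted p = 0.0005). In RpS3 the log2 fold change was 0.44 (SE 0.23, adjusted p = 0.214). The call in mahj was lost without mahj1 (adjusted p = 0.306) and against WT1 and WT2 alone (0.83, adjusted p = 0.135), and no other single library ended a call of ImpL2 against WT.

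**Figure D1:**
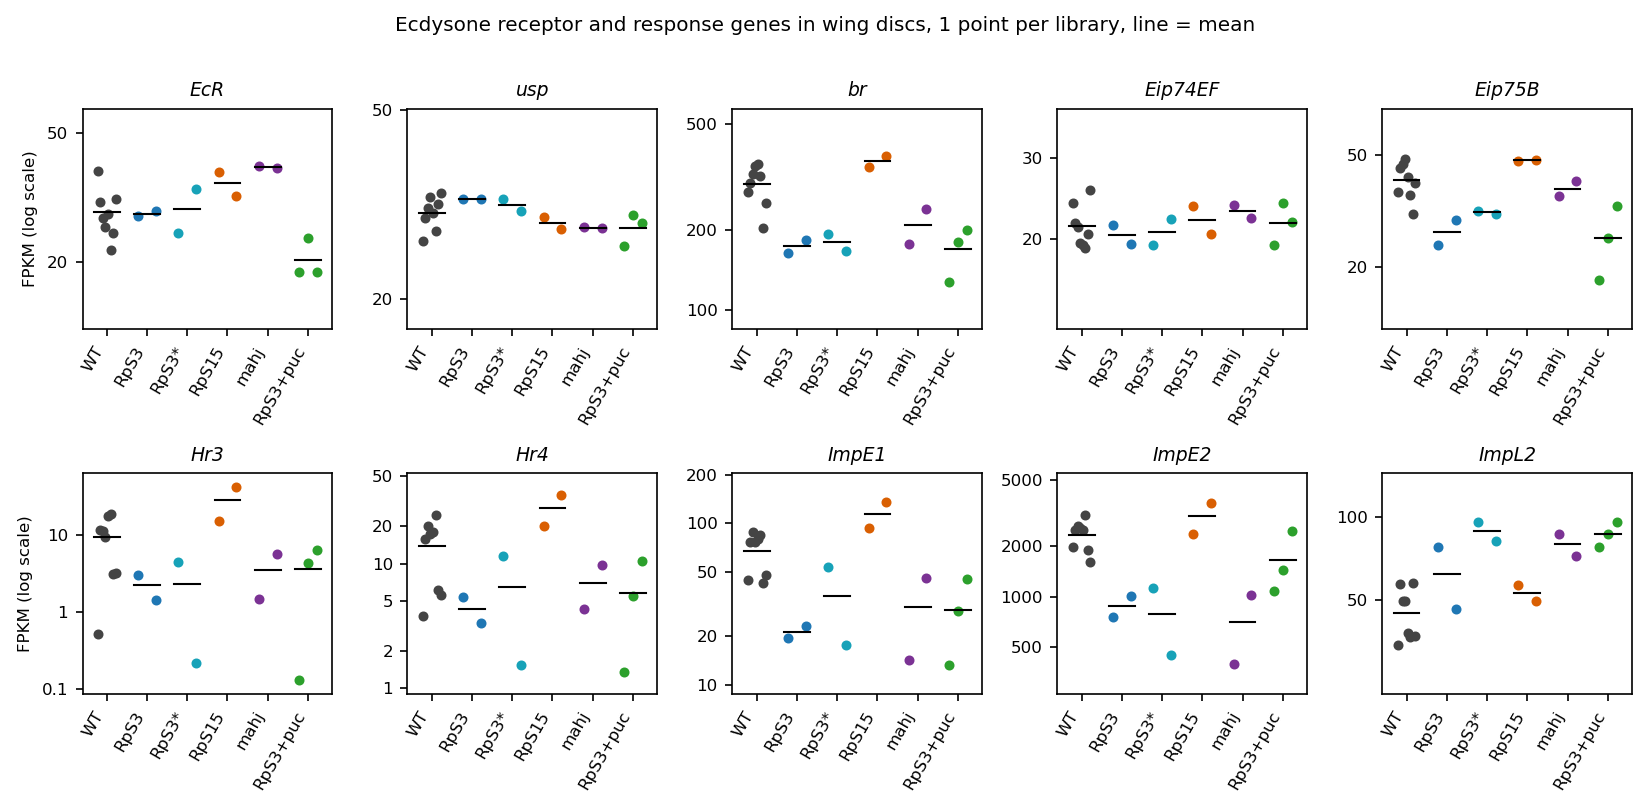
FPKM on a log scale of the 10 ecdysone genes in the 6 genotypes, with 1 point per library and a line at the mean of each group. ImpE2 lies below every WT library in the 6 RpS3, RpS3* and mahj libraries, ImpL2 lies above every WT library in RpS3*, mahj and RpS3+puc, and usp and Eip74EF stay within narrow ranges.

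Within groups some of the members moved together. WT1, WT7 and WT8 were the lowest 3 of the 8 WT libraries for each of br, Hr3, Hr4, ImpE1 and ImpE2, which are 5 genes singled out after their values were seen. In the pairs of mutant libraries the same 5 genes were all higher in RpS15 replicate 2 than in RpS15 replicate 1, all higher in mahj2 than in mahj1, and all higher in RpS3* replicate 1 than in RpS3* 2. Between the RpS3 libraries they were mixed, 2 being higher in RpS3 replicate 1 and 3 in RpS3 2. Over all 10 members the split was less even in direction. In each of RpS3, RpS15 and mahj, 4 were higher in the first library and 6 in the second, and in RpS3* 8 and 2. The ratios that follow are those of the 5 genes. The ratios were large for Hr3 (20.2-fold between the RpS3* libraries) and Hr4 (7.55-fold), at 3.01-fold for ImpE1 and 2.53-fold for ImpE2 in the same pair, and small for br (1.15-fold). In RpS3+puc all 5 were lowest in RpS3+puc replicate 1 and highest in RpS3+puc 3. Across all 19 libraries, Hr4 and ImpE1 ran from RpS3+puc replicate 1 (1.35 and 13.2 FPKM) to RpS15 replicate 2 (35.4 and 136 FPKM).

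**Figure D2:**
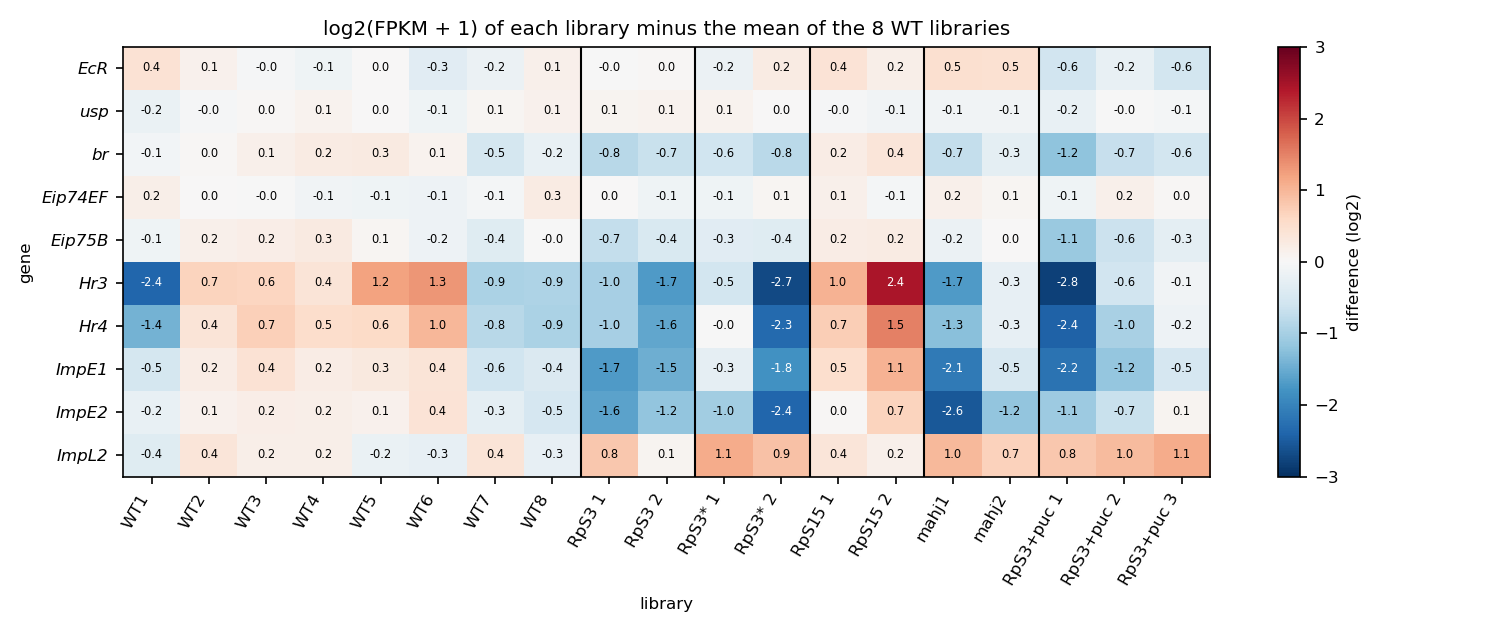
Heat map of log2(FPKM + 1) of each member (rows) in each of the 19 libraries (columns, grouped by genotype), minus the mean of the 8 WT libraries, with red for higher and blue for lower. The rows of Hr3, Hr4, ImpE1 and ImpE2 share their blue columns (RpS3* replicate 2, mahj1, RpS3+puc replicate 1), and WT1, WT7 and WT8 are blue in the WT block.

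**Figure D3:**
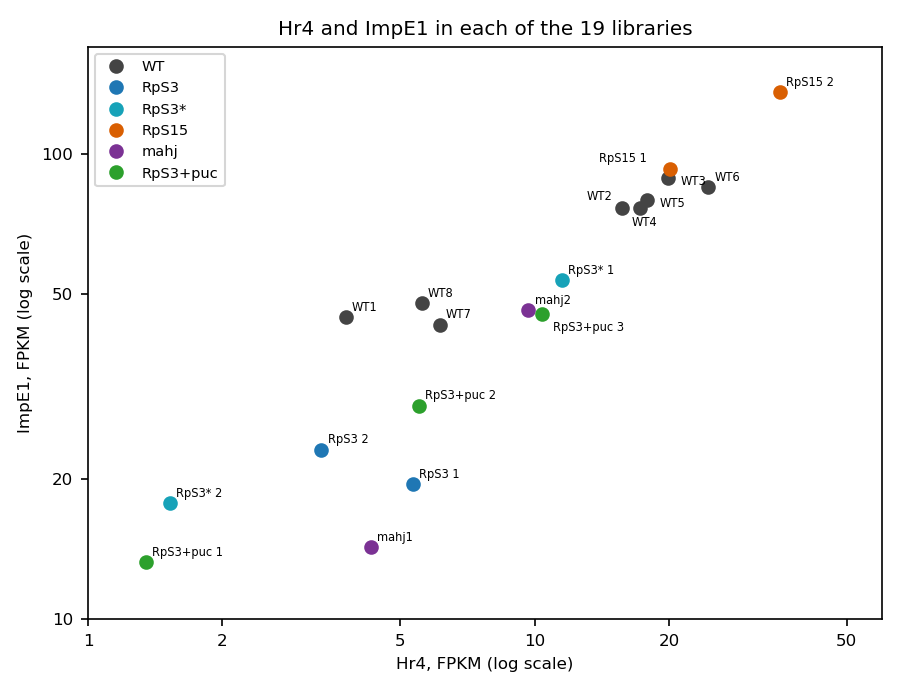
Hr4 against ImpE1 in FPKM, both on log scales, with 1 labelled point per library coloured by genotype. WT1, WT7 and WT8 stand apart from the other 5 WT libraries at 3.78 to 6.13 FPKM of Hr4, and RpS15 replicate 2 is highest for both genes, at 35.4 and 136 FPKM.

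In 4 members (Hr4, ImpE1, ImpE2 and ImpL2) the WT values fell into separate clusters, the widest gap between neighbouring libraries being larger than the range on either side of it. No pooled correlation is given for the 30 pairs of members with 1 of these genes, and clusters of 3, 4 or 5 libraries were too small for a value within them. Over the other 15 pairs, none of the correlations across the 8 WT libraries passed an adjusted p of 0.1, and 3 had a two-sided exact permutation p under 0.05. EcR and Eip74EF had Pearson's r = 0.78 (exact permutation p = 0.022, adjusted p = 0.109) and Spearman's rho = 0.81 (exact permutation p = 0.022, adjusted p = 0.157), and r = 0.69 without the 2 libraries farthest from the median of EcR. For br and Eip75B r was 0.76 (exact permutation p = 0.025, adjusted p = 0.11) and rho 0.67 (exact permutation p = 0.083, adjusted p = 0.288). Without the 2 libraries farthest from the median of br, r was 0.49. For Eip74EF and Hr3 r was −0.73 (exact permutation p = 0.036, adjusted p = 0.116) and rho −0.67 (exact permutation p = 0.083, adjusted p = 0.288). Without the 2 libraries farthest from the median of Eip74EF, r was −0.35. Within the 6 yw libraries r was 0.77, 0.95 and −0.59 for these 3 pairs. The p-values were adjusted over all 45 pairs.

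As a description over the 19 libraries, which share genotypes, the gene whose log2(FPKM + 1) ran closest to each member was found among 7856 other genes with a mean of at least 1 FPKM. Hr3 ran closest to Hr4 (Pearson's r = 0.97). Hr4 ran closest to Blimp-1 (r = 0.98), a zinc finger repressor that is itself induced by ecdysone, and so did ImpE1 (r = 0.96). Closest to br was sr (r = 0.97), the transcription factor of tendon cells, and closest to ImpE2 was Glut1 (r = 0.97), a glucose transporter. EcR ran with ps (r = 0.95), an RNA-binding splicing factor, and Eip75B with SKIP (r = 0.94). Values were lower for ImpL2 with Traf4 (r = 0.90), an adaptor of TNF receptors, for Eip74EF with CG10747 (r = 0.84) and for usp with Brf (r = 0.81), a subunit of an RNA polymerase III factor. For ImpL2, the other member nearest to it (Eip74EF) had r = 0.05.

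Against WT, 4 of the 10 members were called in RpS3 discs, all lower (br, Eip75B, ImpE1 and ImpE2), beside 18.6% of all genes tested. Of all genes, 1162 were called higher and 336 lower. The median log2 fold change was −0.67 over the members and 0.09 over all genes. Without RpS3 replicate 1, ImpE2 was the 1 member still called. In RpS3* discs 3 of 10 were called, br and ImpE2 lower and ImpL2 higher. Of all genes, 22.8% were called (1329 higher and 511 lower). The medians were −0.53 over the members and 0.07 over all genes. Without WT7 the count was 5, with Eip75B and ImpE1 added. Between the alleles of RpS3 no member was called by limma (0 of 10, with 1 at an unadjusted p under 0.05), where 0.821% of all genes were.

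In mahj discs 4 of 10 members were called, EcR and ImpL2 higher and ImpE1 and ImpE2 lower. Of all genes, 16.0% were called (760 higher and 546 lower). The medians were −0.30 over the members and −0.01 over all genes. The count was 2 without WT3 or without WT4, 1 without mahj1 and 5 without WT7. No member was called between mahj and RpS3 (0 of 10, with 2 at an unadjusted p under 0.05) or between mahj and RpS3* (0 of 10, with 1 at an unadjusted p under 0.05), beside 17.1% and 22.7% of all genes.

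In RpS15 discs limma called 0 of 10 members, with 1 at an unadjusted p under 0.05, beside 21.1% of all genes. The direction of 9 of the 10 was upward, and the median was 0.30 over the members and 0.03 over all genes. The count was 1 without WT1 (EcR, adjusted p = 0.076), WT3 or WT6 (ImpE1). RpS15 discs were also tested against RpS3, RpS3* and mahj discs. Against RpS3, 6 members were called, all higher in RpS15 (br, Eip75B, Hr3, Hr4, ImpE1 and ImpE2), beside 47.3% of all genes. The log2 fold change was 3.09 for Hr3 (SE 1.23, adjusted p = 0.062), 2.35 for ImpE1 (SE 0.63, adjusted p = 0.012) and 1.75 for ImpE2 (SE 0.49, adjusted p = 0.014). Against RpS3*, the same 6 were called higher and ImpL2 lower, beside 50.8% of all genes, and mahj had lower br, ImpE1 and ImpE2 than RpS15 (3 of 10, beside 28.6% of all genes). These counts are not read as particular to the members, since so many genes were called in each comparison. Wing disc markers moved with them, with 6 of 6 called higher in RpS15 than in RpS3, 3 of 6 higher than in RpS3*, and 5 of 6 lower in mahj than in RpS15, and their part in these differences was not tested. The calls of Hr3 and Hr4 against RpS3 were lost without either RpS3 library or RpS15 replicate 2 (adjusted p between 0.131 and 0.273), and that of Hr4 also without RpS15 replicate 1 (0.103). Without RpS15 replicate 2 these counts were 3, 2 and 1. The second was 3 without RpS3* replicate 2, and the third was 0 without mahj1.

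In RpS3+puc discs 6 of 10 members were called against WT, EcR, br, Eip75B, ImpE1 and ImpE2 lower and ImpL2 higher. Without regard to direction, this share is close to that of all genes, of which 62.3% were called (3031 higher and 2013 lower). The medians were −0.62 over the members and 0.08 over all genes. Against RpS3 discs 2 members were called, EcR and usp, both lower, beside 46.6% of all genes, and the count was 0 without RpS3 2. Without RpS3+puc replicate 1, Hr3 was called higher in RpS3+puc (1.01, adjusted p = 0.039), and without RpS3 replicate 1, ImpL2 was (0.89, adjusted p = 0.013). ImpE1 had 29.1 ± 16.0 FPKM (SD, n = 3) in RpS3+puc and 21.3 ± 2.58 (SD, n = 2) in RpS3. For Hr4 the values were 5.76 ± 4.54 and 4.34 ± 1.43 FPKM. Both differences in mean were smaller than the SD of RpS3+puc, while that of ImpE1 was larger than the SD of RpS3. The comparisons with WT share the same 8 WT libraries. Between the FRT82 ubi-GFP and the yw WT libraries limma called no member (0 of 10, also 0 at an unadjusted p under 0.05), beside 0.815% of all genes, while the fitted difference of Hr3 was 1.70 on the log2 scale (SE 0.86, adjusted p = 0.591). In the F test over the 6 genotypes 6 of 10 members were called (EcR, br, Eip75B, ImpE1, ImpE2 and ImpL2), a smaller share than the 82.2% of all genes.

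**Figure D4:**
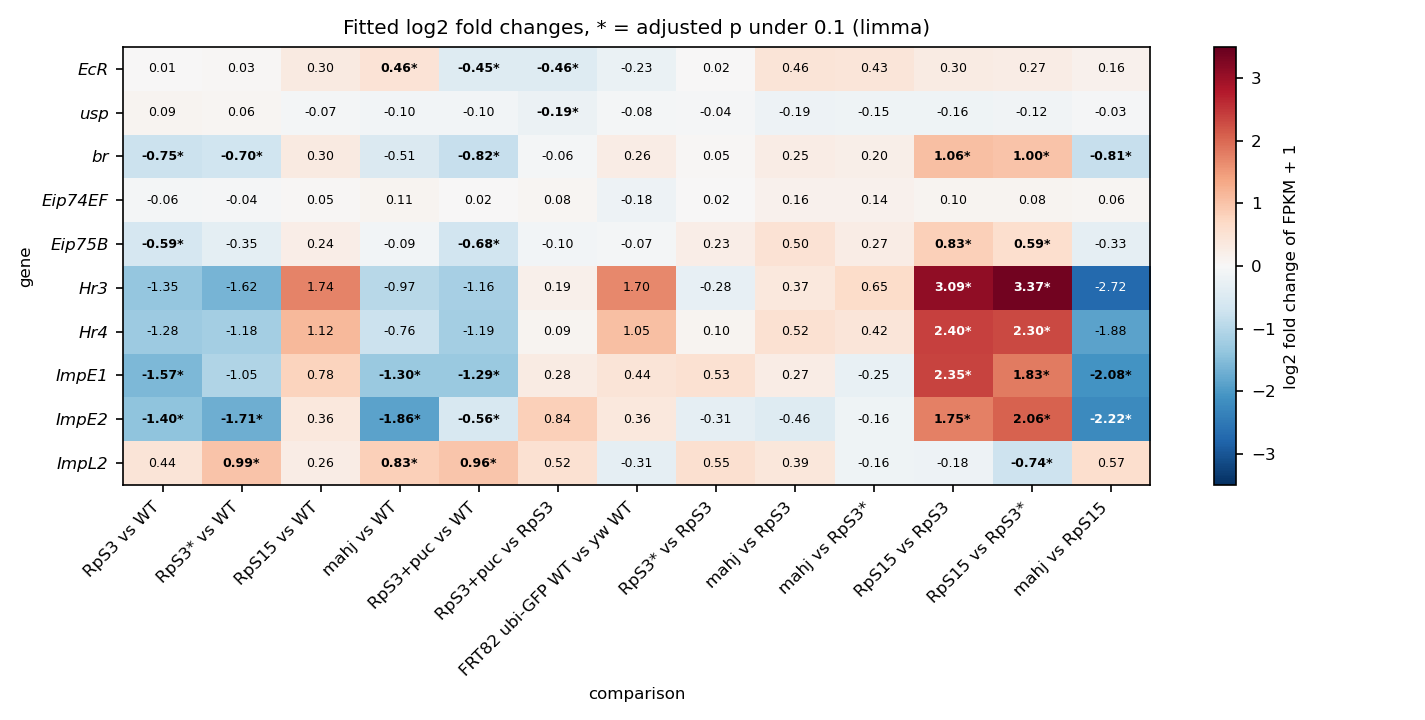
Fitted log2 fold changes of FPKM + 1 of the 10 members (rows) in 13 comparisons (columns), with the value in each cell and an asterisk where the adjusted p was under 0.1. RpS15 against RpS3 and against RpS3* is red for br, Eip75B, Hr3, Hr4, ImpE1 and ImpE2, up to 3.37 for Hr3. Eip74EF, in the same block of rows, is 0.10 and 0.08 and not called. RpS3* against RpS3 holds no call.

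Other genes of the ecdysone pathway were counted in 8 lists, which hold 68 genes besides br. RpS3 discs had 1 called higher and 8 lower of 50 tested, RpS3* discs 4 higher and 9 lower of 49, and mahj discs 4 higher and 4 lower of 50. In RpS15 discs 10 of 51 were higher and 2 lower, and in RpS3+puc 8 of 49 were higher and 24 lower. Without regard to direction, these totals are near the 18.6%, 22.8%, 16.0%, 21.1% and 62.3% of all genes called. Of all genes, 1162 were called higher and 336 lower in RpS3, 1329 and 511 in RpS3*, and 760 and 546 in mahj. In RpS15 they were 984 and 731, and in RpS3+puc 3031 and 2013. In RpS3, RpS3* and RpS3+puc the list genes thus leaned lower where all genes leaned higher, which was not tested. The median log2 fold changes of the list genes were −0.01, −0.13, −0.05, 0.19 and −0.47 in RpS3, RpS3*, mahj, RpS15 and RpS3+puc.

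Among the early and early-late genes, Eip78C, an orphan nuclear receptor, had 14.2 to 27.2 FPKM in WT. The RpS3 libraries had 9.51 and 9.68 FPKM, those of RpS3* 15.9 and 6.95, mahj 7.72 and 14.0, and RpS15 28.3 and 37.6. It was called lower in RpS3 (log2 fold change −1.002, SE 0.21, adjusted p = 0.012), RpS3* (−0.87, adjusted p = 0.064) and mahj (−0.89, adjusted p = 0.04) and higher in RpS15 (0.66, adjusted p = 0.071). Hr39, a nuclear receptor of the FTZ-F1 class, was lower in RpS3 (−0.53, adjusted p = 0.089) and RpS3+puc (−0.87, adjusted p = 0.0017) and higher in RpS15 (0.71, adjusted p = 0.033). Blimp-1 had 8.85 to 28.1 FPKM in WT, 7.09 and 5.70 in RpS3, 2.94, 7.88 and 16.6 in RpS3+puc and 33.7 and 56.4 in RpS15. It was lower in RpS3 (−1.41, adjusted p = 0.075) and RpS3+puc (−1.20, adjusted p = 0.064). The mid-prepupal factor ftz-f1 rose in mahj (1.29, SE 0.32, adjusted p = 0.021), where it had 12.0 and 8.28 FPKM beside 1.75 to 6.76 in WT. Cyp6t3, a cytochrome P450 of steroid synthesis, was the exception in size. It had 0.183 to 0.535 FPKM in WT and 4.55 to 6.17 in the RpS3 and RpS15 libraries. The log2 fold changes were 2.17 and 2.33. Since Cyp6t3 passed the filter only through the libraries where it was high, no p-value is given. It is still counted among the genes called higher in RpS3, where it is the only 1 of the lists, and in RpS15. RpS3* stayed at 0.366 and 0.639 FPKM. RpS3+puc, which carries the RpS3[Plac92] allele of the RpS3 discs, had 0.186, 0.259 and 0.407. Eip55E, which encodes an enzyme of cysteine synthesis, was lower in RpS15 (−0.53, adjusted p = 0.008) and mahj (−0.41, adjusted p = 0.022) and higher in RpS3+puc (0.22, adjusted p = 0.04). Without RpS3 replicate 1 or 2 no gene of this list was called in RpS3 (Cyp6t3, under 1 FPKM in WT, was then no longer among the genes tested, nor was it with a single RpS15 library), and the counts fell to 0 without RpS15 replicate 1, to 1 without RpS15 replicate 2, to 0 in mahj without mahj1, to 0 in RpS3* without RpS3* replicate 2 and from 8 to 5 in RpS3+puc without RpS3+puc replicate 1.

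Of the 8 genes of disc eversion and hormone induction, Sb, a transmembrane protease that discs need to evert, fell in RpS3 (−0.71, adjusted p = 0.041), RpS3* (−0.67, adjusted p = 0.087), mahj (−0.77, adjusted p = 0.054) and RpS3+puc (−0.53, adjusted p = 0.037). ImpE3 fell in RpS3 (−0.95, adjusted p = 0.099) and RpS3* (−1.17, adjusted p = 0.088), and ImpL1 rose in RpS15 (0.89, adjusted p = 0.062). Ldh, also known as ImpL3 and encoding lactate dehydrogenase, rose in RpS3* (0.88, adjusted p = 0.027), RpS15 (0.71, adjusted p = 0.061) and mahj (1.98, adjusted p = 0.00013), where the libraries had 44.7 and 39.1 FPKM and WT 6.07 to 13.9. In RpS3+puc, zip, the heavy chain of non-muscle myosin (−0.77, adjusted p = 0.00012), and Rho1, its upstream GTPase (−0.33, adjusted p = 0.057), were lower as well. So were the metalloproteases Mmp1 (−0.32, adjusted p = 0.026) and Mmp2 (−0.50, adjusted p = 0.032). Mmp1 was instead called higher in RpS15 (33.7 and 42.3 FPKM) and mahj (41.7 and 36.1), beside 26.4 to 35.8 in WT. Mmp2 was also called lower in RpS3* (12.7 and 8.56 FPKM), beside 11.7 to 19.3 in WT. This list also leaned on single libraries, with no call in RpS3 without either RpS3 library, none in RpS3* without RpS3* replicate 2, none in RpS15 without RpS15 replicate 2, and 1 each in RpS15 without RpS15 replicate 1, in mahj without mahj1 and in RpS3+puc without RpS3+puc replicate 1.

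The temporal factor chinmo, which marks young progenitors and is switched off as larvae mature, rose in RpS3* (1.17, SE 0.26, adjusted p = 0.011) and mahj (2.61, SE 0.26, adjusted p = 3.2e-05). It had 0.787 to 2.78 FPKM in WT, 3.64 and 6.39 in RpS3*, 18.98 and 11.5 in mahj and 1.71 and 0.564 in RpS15. RpS3 had 3.36 and 2.43 FPKM and was not called. The authors reported chinmo as a target of JAK/STAT signalling that was upregulated in RpS3 and mahj cells. Which of these roles goes with the rise was not tested. Eip93F, lin-28 and dati were under 1 FPKM on average. Of the hormone synthesis genes, shd makes the active hormone in target tissues. It had no more than 1.8 FPKM in any library, with 0.691 to 1.72 in WT. The log2 fold changes of shd were −0.61 in RpS3, −0.73 in RpS3* and −0.63 in RpS3+puc. In these 3 groups it was under 1 FPKM and passed the filter only through WT libraries. No p-value is therefore given, though shd is counted among the genes called lower. sad fell in RpS3* (−0.65, adjusted p = 0.0052), RpS15 (−0.42, adjusted p = 0.048) and RpS3+puc (−0.25, adjusted p = 0.056). Other synthesis genes rose, sro (0.53, adjusted p = 0.016), dib (0.47, adjusted p = 0.01) and phm (0.30, adjusted p = 0.074) in RpS3+puc and phm in RpS3* (0.51, adjusted p = 0.052), so that in RpS3+puc 3 of 6 were higher and 2 lower. E23, an ABC transporter that dampens the response, fell in RpS3* (−0.78, adjusted p = 0.065) and rose in RpS15 (0.94, adjusted p = 0.046). Oatp74D, which encodes the importer of ecdysone, fell in RpS3 (−0.28, adjusted p = 0.097). Cyp18a1, a gene of hormone breakdown, was called higher in RpS3* (3.04 and 1.87 FPKM) and RpS3+puc (1.04, 1.53 and 2.68), beside 0.783 to 1.45 in WT. Of the receptor partners, the coactivator gene tai (−0.80, adjusted p = 0.00025) and the corepressor gene Smr (−0.97, adjusted p = 0.00059) fell in RpS3+puc, together with trr and Utx, which encode parts of a histone methyltransferase complex, while Alien, another corepressor gene (0.19, adjusted p = 0.039), and Hsp83, a chaperone gene (0.36, adjusted p = 0.088), rose. These are 4 lower and 2 higher of 7, where 62.3% of all genes were called. Utx was also called higher in RpS15 (35.4 and 34.5 FPKM, with 23.4 to 29.4 in WT). Alien was called lower in mahj (66.7 and 68.9 FPKM, with 75.6 to 90.9 in WT).

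**Figure D5:**
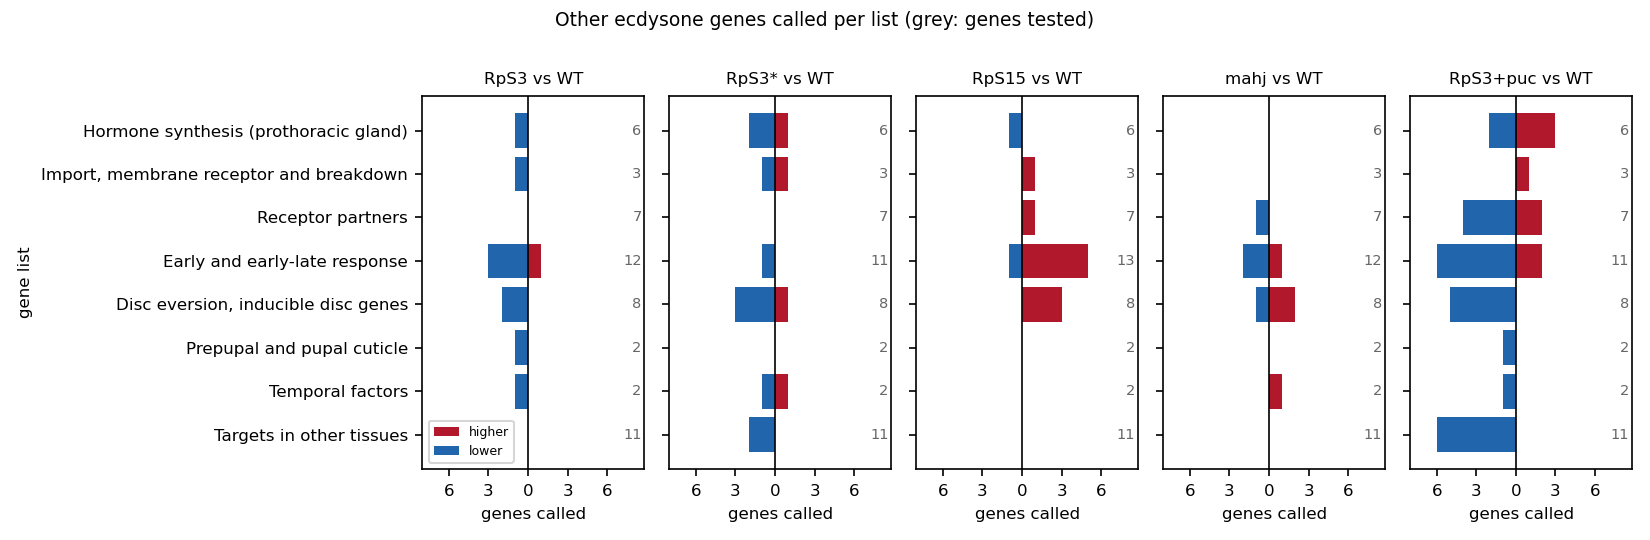
Number of genes called higher (red, to the right) and lower (blue, to the left) than in WT in 8 lists of other ecdysone genes, 1 panel per genotype, with the number of genes tested in grey at the right edge. Temporal factors include br. The early and early-late list has 3 lower and 1 higher of 12 in RpS3 and 5 higher and 1 lower of 13 in RpS15. Those counted as higher include Cyp6t3 in both, which passed the filter only through the libraries where it was high.

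The list of hormone targets in other tissues holds the 6 fat body markers used here. Its called genes were Fbp1 and Fbp2 in RpS3* (−2.86 and −1.96, adjusted p = 0.077 and 0.083) and 6 fat body genes in RpS3+puc (−2.01 to −4.17). The 6 fat body markers (Lsp1alpha, Lsp1beta, Lsp1gamma, Lsp2, Fbp1 and Fbp2) summed to 34.9 to 318 FPKM in WT and 4.85 to 8.98 in RpS3+puc, to 119 and 140 for the RpS3 libraries, 23.3 and 17.6 for RpS3*, 109 and 641 for RpS15 and 1446 and 61.4 for mahj, and none of them was at 0 in any library. Myoblast markers (twi, Mef2, zfh1 and him) summed to 54.0 to 78.7 FPKM in WT and 45.6 to 54.0 in mahj, where 3 of 4 were called lower. They summed to 53.0 and 45.9 FPKM in RpS3* and 55.6 and 48.9 in RpS3, each with 2 of 4 called lower. Tracheal markers (trh, serp and verm) summed to 249 to 341 FPKM in WT and to 342 to 405 in the RpS3, RpS3* and mahj libraries, with 1, 1 and 2 of 3 called higher. Beside these marker counts, 18.6% of all genes were called in RpS3, 22.8% in RpS3*, 16.0% in mahj and 62.3% in RpS3+puc. Haemocyte markers stayed at or under 12.9 FPKM in sum in every library. The part of these tissues in the values of the 10 members was not tested.

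Ilp8 encodes a relaxin-like peptide that delays the ecdysone pulse when discs grow poorly. It had 0.0747 to 0.408 FPKM in WT and 1.23 to 1.96 in RpS3+puc. The RpS3 libraries had 4.23 and 1.63 FPKM, those of RpS3* 21.2 and 29.4, mahj 176 and 18.1, and RpS15 0.581 and 0.0738. In RpS3*, mahj and RpS15 the library with more Ilp8 was the one with less Hr3, Hr4, ImpE1 and ImpE2, whereas in RpS3 this held only for ImpE1 and ImpE2. Each of these groups has only 2 libraries, and both RpS15 values of Ilp8 were under 1 FPKM. In RpS3+puc, replicate 1 had the most Ilp8 and the least of the 4 genes. In WT, WT6 had the most Ilp8 (0.408 FPKM) but also the highest Hr3, Hr4 and ImpE2. The relation was not tested.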

How the data were processed

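The authors deposited 1 FPKM value per gene and library, scaled to transcript length and library size (the unit follows from the values, in which RPKM would look alike). Per the labels, TruSeq libraries were made from 1 µg of total RNA, and the submitters' processing notes name BWA 0.6.2 and the build dm3. The counting and normalization tools are not given in the sources used here. Count models were not run, since the values are not counts. limma 3.58.1 (statmod 1.5.0, R 4.3.3) was fitted to log2(FPKM + 1) with a trended and robust variance. Comparisons with WT and of RpS3+puc with RpS3 used the compared libraries only, and those between other mutants and the F test used all 19. The fit was tested on simulated data. Symbols matched 13664 of 13955 identifiers, and positions are from BDGP6.54. The older identifier of br was matched through the study's supplement, and nvd, wg and btl were not matched. The members, the lists and the alternatives were chosen with earlier results of these data known. Besides the members, named genes were drawn mainly from list genes called against WT (at most 4 per list and comparison, by fold change), each member's nearest gene, and Ilp8. Members called and fold changes were recomputed at an adjusted p under 0.05, with a pseudocount of 0.1, other filters, median-of-ratios scaling, other WT libraries, a plain variance, a replicate block, and without each library.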

Additional observations from a re-analysis of the deposited data

How the results depend on the processing

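Of 1689 recomputed log2 fold changes of single members, 1490 kept their direction and their side of the threshold, 77 dropped out of the calls, 46 entered them, and 75 changed sign while called under neither setting. EcR in RpS3 against WT, not called and near 0 otherwise, was called at −0.27 (adjusted p = 0.091) under the replicate block. The count of members called in RpS3* against WT was 5 with median-of-ratios scaling, which also gave 1 for mahj against RpS3 and 2 correlations within WT. For RpS15 against WT it was 1 with yw WT libraries only, 2 with FRT82 ubi-GFP WT libraries only, and 1 with WT libraries of as many sequencing runs. The last of these gave 1 for mahj against WT, for which an adjusted p under 0.05 gave 2, and FRT82 ubi-GFP WT libraries only gave 3 for RpS3+puc against WT. For RpS3+puc against RpS3, an adjusted p under 0.05, a pseudocount of 0.1, no filter and a fit of all 19 libraries each gave 1. The causes were not tested.

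With the replicate number as a block the counts were 4 for RpS15 against WT, 1 for mahj against WT and 4 for RpS3+puc against RpS3. The block ended the calls of ImpE2 (adjusted p = 0.118) and ImpL2 (0.371) in mahj and of ImpE2 (0.359) and ImpL2 (0.197) in RpS3*. Against WT it also called Hr3 (−0.80, adjusted p = 0.00033) and Hr4 (−1.085, adjusted p = 8.3e-07) in RpS3+puc and Hr4 in RpS15 (1.63, adjusted p = 0.071). Deviations of 31 same-numbered pairs of libraries correlated at −0.281 to 0.256, with 9 above 0.1, so that the numbers were not taken as pairs.

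Leaving out 1 library at a time, the count ranged from 1 to 4 for RpS3, 2 to 5 for RpS3*, 0 to 1 for RpS15, 1 to 5 for mahj and 5 to 7 for RpS3+puc against WT, from 0 to 2 for RpS3+puc against RpS3, from 3 to 5 for RpS15 against RpS3, from 2 to 6 for RpS15 against RpS3*, and from 0 to 3 for mahj against RpS15. The share of all genes called moved as well, from 1.69% to 50.4% for RpS3 against WT over all settings. A group left with 1 library was assumed to vary like the others. Hr4 in RpS3+puc against WT was called with a plain variance (−1.19, adjusted p = 0.091).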
